A study of Rattus norvegicus with 18 samples.

Results

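The comparison set 7 germ cell populations of the rat testis against 2 somatic cell populations of the same organ, and asked which genes put every germ library on one side of both somatic libraries. All 9 populations came from 22-day-old rats, and each was hybridised to 1 oligonucleotide array of each of 2 types, called A and B here, which gives 14 germ and 4 somatic arrays out of the 18 in the series. The germ populations were cells that bound to laminin, cells that did not bind to it, cells grown on the STO feeder line (1, 5, 10 or 20 days), and cells grown on the MSC1 feeder line (20 days). The somatic populations were interstitial cells, from the tissue between the seminiferous tubules, and somatic cells of the tubules. Both feeder lines are of mouse origin, STO from embryonic fibroblasts and MSC1 from Sertoli cells. No genotype, strain or drug is named for any population.

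The labels limit what the contrast can show. They call all 7 germ populations cultured, the laminin ones without a day, and they do not call either somatic population cultured, so that culture and cell kind cannot be told apart. The 5 feeder-grown populations may also hold RNA of mouse feeder cells. Each population has 1 array per type and no repeat, so the spread in every test is that between different populations of a kind, and nothing says how many animals or preparations stand behind an array. Fewer cells of a type and less RNA per cell cannot be told apart in such bulk RNA.

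At this age the tubules hold spermatogonia, which divide by mitosis, and the first spermatocytes, which pass through meiotic prophase. Germ cells depend on a set of proteins that other cells lack, among them the piRNA pathway, in which PIWI proteins and Tudor domain proteins silence transposons, and the synaptonemal complex, which joins homologous chromosomes. They are surrounded by Sertoli cells, which feed them and form the blood-testis barrier. Peritubular myoid cells, Leydig cells, which make androgen, and macrophages lie outside that layer.

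A signal is a scaled intensity, given per probe set, that averages 250 on each array. Signals under 50 were raised to 50, called the floor, before log2 was taken, and a fold against a population under the floor is a lower bound. Of 31042 probe sets, 20040 reached 100 in at least 2 of the 9 libraries, and 13482 of these had 1 gene each, for 10231 genes. A gene that passed only through the group where it was high had to differ. Counts over the measured members of a gene list below, and the SE and p-values of such genes, are therefore descriptions. The 3' to 5' signal ratio of Gapdh, which grows as amplified RNA gets shorter, ran on type A from 5.63 to 29.7 over germ and from 7.94 to 11.2 over somatic libraries. On type B the germ range was 5.33 to 27.1 and the somatic range 9.25 to 16.7. The germ values lay on both sides of the somatic ones. On type A every feeder-grown germ library lay above both somatic libraries, at 14.7 or more. Both laminin libraries lay below them, at 7.07 or less. Type B gave the same order, except that STO day 20 lay between the somatic libraries. The 3' to 5' ratio of actin ordered the feeder-grown libraries otherwise. On type A STO day 1 and day 10 lay above both somatic libraries (41.2 and 67.3), at 71.2 and 94.3. STO day 5, STO day 20 and MSC1 lay below both, at 26.8, 37.0 and 25.8. On type B STO day 5 and MSC1 also lay below both. The part of either ratio in the results was not tested. The 100 probe sets present on both types gave germ minus somatic differences that varied between the types with an SD of 0.15 (log2, per type), and none of them separated the groups in opposite directions.

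The groups were separated without overlap by a large share of the probe sets. Every germ library lay above both somatic libraries for 2884 probe sets (14.4%) and below both for 2535 (12.6%). The gap, the step from the lowest library of the higher group to the highest library of the lower group, was 2-fold or more for 545 (2.72%) and 726 (3.62%) of them. With each gene read from its brightest probe set, 1832 genes (17.9%) lay above and 1373 (13.4%) below, with a gap of 2-fold or more for 361 (3.53%) and 408 (3.99%). The median difference over all genes was 0.14 (log2, germ minus somatic), a value that the scaling of each array to one average also sets.

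In limma's moderated test with Benjamini-Hochberg adjustment, 1682 probe sets (8.39%) were higher and 1819 (9.08%) lower in germ libraries. As genes, these were 1124 (11.0%) and 1039 (10.2%). The counts rest on both somatic libraries: without the interstitial library they were 562 and 1036 probe sets, and without the tubular somatic library 618 and 1150. With the 5 feeder libraries averaged to 1, which leaves 3 germ values, they were 451 and 753, and with the laminin libraries as the only germ ones limma called 0, with 3334 probe sets at an unadjusted p under 0.05.

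**Figure D1:**
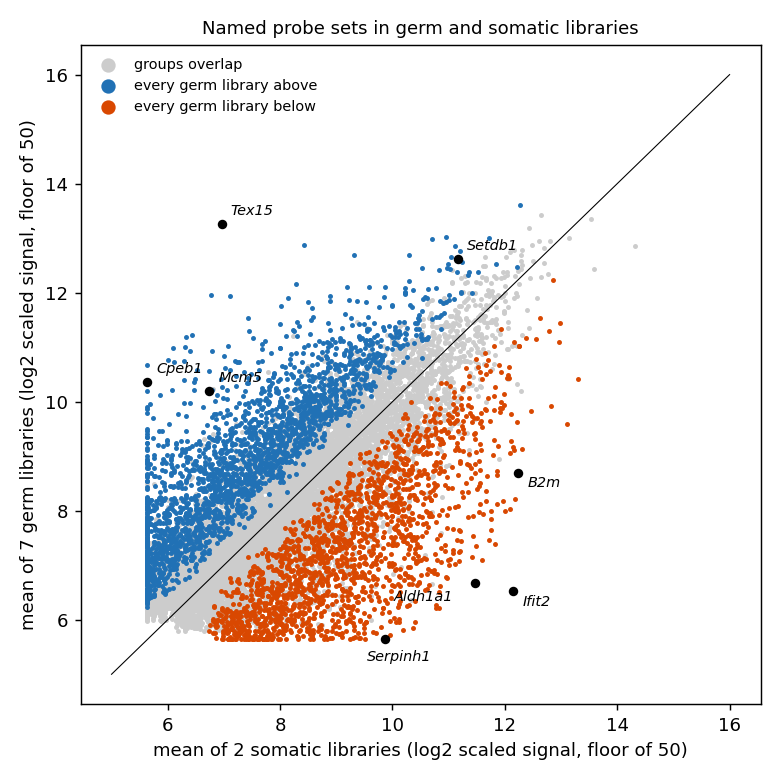
Mean log2 signal of the 7 germ libraries (y axis) against that of the 2 somatic libraries (x axis), for 13482 probe sets with 1 gene. Blue points have every germ library above both somatic ones, orange points every germ library below, grey points overlap, and the black points carry the names of 8 genes. Separated probe sets lie on both sides of the diagonal, and many sit on the floor of 50 in the lower group.

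Among genes whose somatic signals were over the floor, Tex15 had the widest gap on the germ side. Tex15, a factor of piRNA-guided silencing and of meiotic recombination at chr16:65302049-65362065 (GRCr8), had signals of 3681, 12646 and 17497 as the lowest, median and highest of the germ libraries, against 71.1 in the interstitial and 219 in the tubular somatic library. The lowest germ library, the laminin non-binding cells, was thus 16.8-fold over the higher somatic one, and the mean difference was 6.30 ± 0.57 (log2, SE; adjusted p = 4.2e-05). Tdrd1, a Tudor domain scaffold of the piRNA machinery at chr1:265876858-265924357, ran from 2836 through 8467 to 12405 against 390 and 303. Its gap was 7.27-fold and its difference 4.45 ± 0.47 (adjusted p = 8.9e-05). The groups did not overlap for either gene, and the low germ library differed between them, since Tdrd1 was lowest in laminin-binding cells.

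Of 4 other genes of the piRNA pathway, Mov10l1 and Asz1 were under the floor in both somatic libraries. Mov10l1, the helicase that feeds precursor RNA into the pathway, had somatic signals of 7.40 and 8.60 and germ signals of 420, 484 and 1686 (lowest, median, highest), at least 8.40-fold apart. Asz1, a protein of the mitochondrial surface where piRNAs are processed, had 20.3 and 6.50 against 493, 729 and 1216, at least 9.86-fold. Gpat2, a partner of the same machinery, read 17.5 in interstitial and 82.6 in tubular somatic cells, and from 967 through 1864 to 2707 in germ cells. No germ library came near the somatic range in these 3 genes. Piwil2, the PIWI protein of spermatogonia, had a smaller gap of 4.72-fold, with somatic signals of 123 and 126 and germ signals of 595, 1154 and 3126 (3.30 ± 0.53, adjusted p = 0.0012).

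Genes named for their testis expression followed. Tex14, needed for the bridges that join dividing germ cells, had germ signals of 1756, 4114 and 5442 against 140 and 136, and a gap of 12.6-fold. Taf7l, a germ cell variant of a TFIID subunit on the X chromosome, had 1447, 4464 and 5696 against 94.3 and 127. In both genes the laminin-binding cells were the low germ library, by more than the spread of the other 6. Tex101, a surface glycoprotein of germ cells, had 640, 787 and 2927 against 57.1 and 59.5, and Tex19.2 had 1011, 2237 and 3977 against 116 and 53.6. The gaps of these genes ranged from 8.69-fold to 12.6-fold. Epcam, a cell adhesion protein, had 636, 771 and 2617 with both somatic libraries under the floor at 34.3 and 43.6, at least 12.7-fold.

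Of the 14 measured genes in the list of general germ cell markers, 10 lay above both somatic libraries, all 10 passed limma as higher, and none lay below, against 17.9% and 11.0% of all genes. The list's median difference was 3.68 (log2) beside 0.14 for all genes. The 4 members that did not separate were Tdrd7, Nanos3, Dppa3 and Ddx25. Tdrd7, another Tudor protein, read 1821 in tubular somatic cells and 459 to 2692 in germ libraries. Nanos3, an RNA-binding protein of early germ cells, spanned 21.6 on STO day 20 to 437 in laminin-binding cells, with somatic signals of 20.8 and 8.80. The germ libraries themselves thus straddled the floor for Nanos3.

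The markers of meiotic prophase also favoured the germ side. Of 8 measured genes, 6 lay above both somatic libraries and the same number passed limma as higher, beside 17.9% and 11.0% of all genes. The list median was 3.07 (log2). Stag3, a cohesin subunit of meiosis, had 629, 945 and 3137 against 83.9 and 54.6, a gap of 7.50-fold (4.14 ± 0.55, adjusted p = 0.00031). Sycp3, a core protein of the synaptonemal complex, had 548, 926 and 4181 against 104 and 74.5, a gap of 5.25-fold (3.76 ± 0.66, adjusted p = 0.0019). Syce3, of the central element of that complex, had the narrowest germ range, 272 to 508, against 58.7 and 50.2. The groups were apart in all 3 genes although Sycp3 differed 7.63-fold among germ libraries.

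Other meiotic genes were separated by less and varied more. Sycp2 ran from 160 in laminin-binding cells to 2501 on STO day 20, with both somatic signals under the floor, and Smc1b, another meiotic cohesin, from 388 to 6072 in the same libraries, against 150 and 113. Both spanned 15.6-fold among germ libraries, more than their gaps of at least 3.20-fold and 2.58-fold. Spo11, which cuts DNA to start recombination, did not pass the test: it read 2417 in laminin non-binding cells and 2381 on STO day 20 but 14.5 to 179 in the other 5 germ libraries, over somatic signals of 5.90 and 4.50. The germ and somatic groups overlapped there because laminin-binding cells were under the floor.

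The promoters of 2 of the separated germ line genes are shown because they hold the E-box letters CACGTG more than once. Sycp3 has them 85 and 64 bases before its start, and Sohlh1, a transcription factor of spermatogonia that itself belongs to the class that binds E-boxes, has them 133, 113 and 94 bases before. Each window holds the 250 bases before the RefSeq start (GRCr8), written 5′ to 3′ on the strand of the gene, with the motif in capitals. They lie at chr7:24761226-24761475 (plus strand) and chr3:29065589-29065838 (minus strand).
Sycp3: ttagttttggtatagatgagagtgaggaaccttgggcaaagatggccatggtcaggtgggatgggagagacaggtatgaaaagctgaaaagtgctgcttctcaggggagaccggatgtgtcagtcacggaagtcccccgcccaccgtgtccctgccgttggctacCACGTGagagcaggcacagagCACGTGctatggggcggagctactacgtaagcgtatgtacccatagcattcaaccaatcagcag
Sohlh1: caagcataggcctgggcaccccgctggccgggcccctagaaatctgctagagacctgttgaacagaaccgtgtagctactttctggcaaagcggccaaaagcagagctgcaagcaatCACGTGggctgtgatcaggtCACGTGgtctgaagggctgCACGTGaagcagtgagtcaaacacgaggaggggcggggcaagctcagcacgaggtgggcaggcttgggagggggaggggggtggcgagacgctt
Sohlh1 had germ signals of 166, 297 and 429 against 27.5 and 54.1, a gap of 3.07-fold. Over windows of 300 bases, from 250 before to 50 after the start and on both strands, CACGTG was found in 12.8% of 320 genes that lay above with a gap of 2-fold or more, in 7.44% of 336 that lay below, in 10.0% of 8549 tested genes and in 6.65% of all 27457 windows. A match is a description of the letters and not a binding site. Among the other genes named here Tdrd1, Taf7l, Cpeb1, Mov10l1, Igf2bp3 and Prpf19 had 1 match each, as did Dusp1, Nr5a1 and Tgfb2 from the somatic side.

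**Figure D2:**
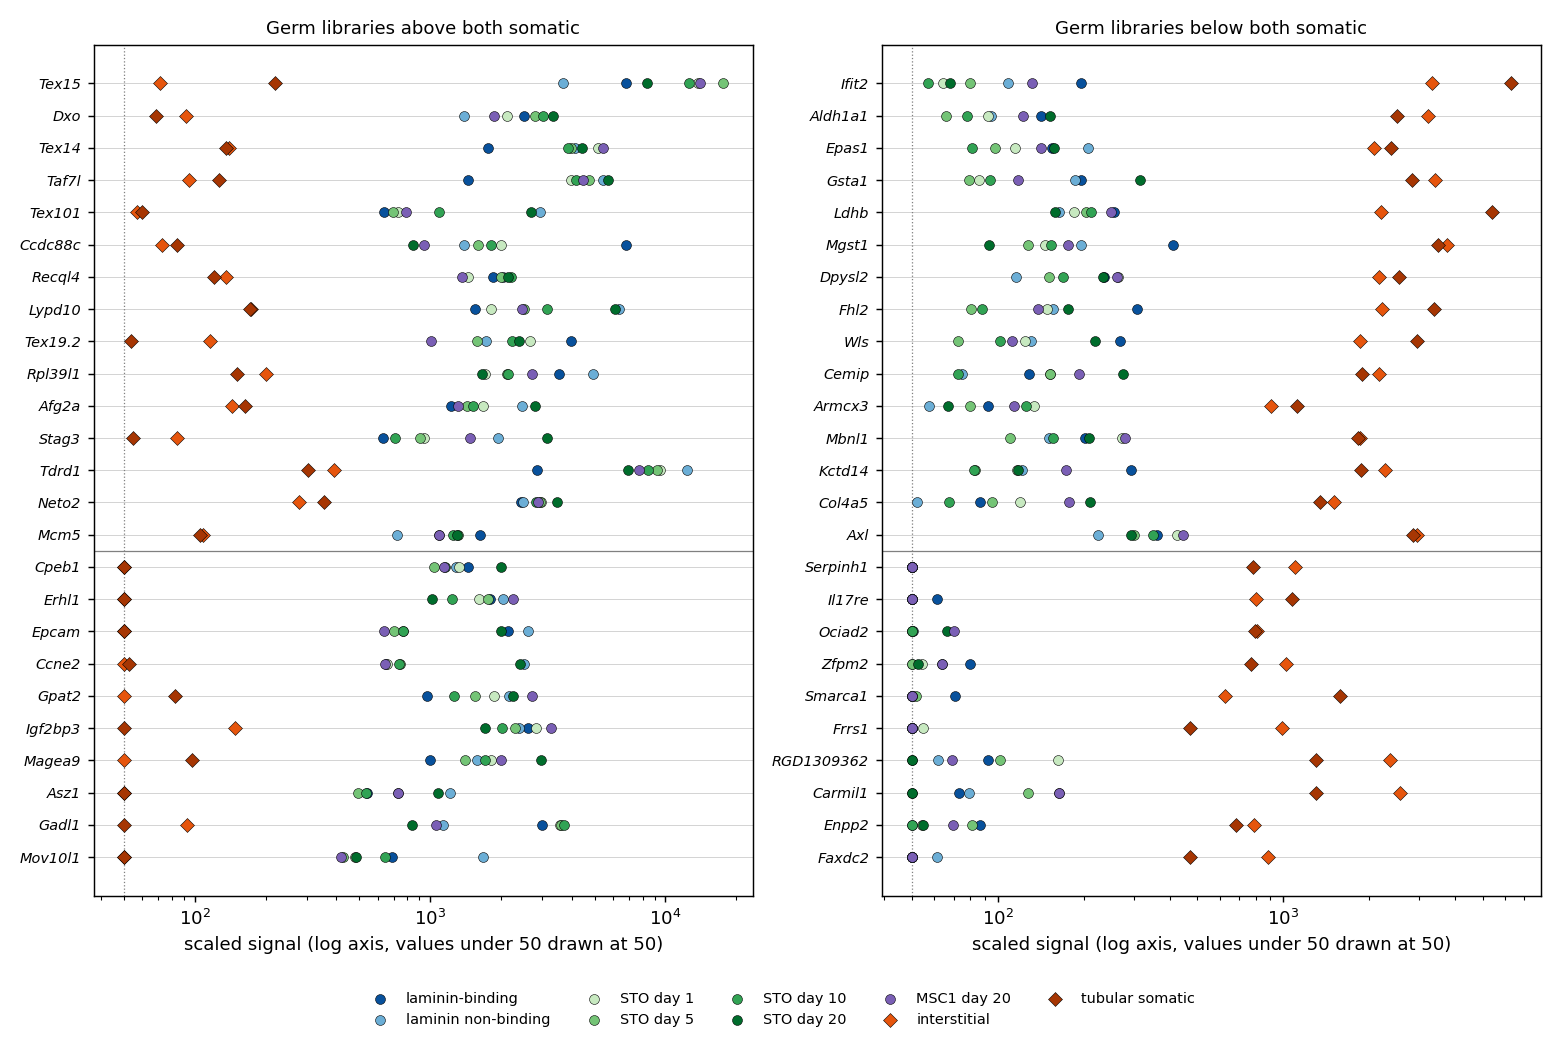
Scaled signal (x axis, log scale) in each of the 9 libraries for the 25 genes with the largest gap on either side; circles are germ libraries, diamonds somatic ones, and signals under 50 are drawn at 50 (dotted line). Genes under the grey line have a library of the lower group at the floor. For every gene the circles and the diamonds do not overlap.

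The list of undifferentiated spermatogonia did not separate as a whole. Of 18 measured markers of undifferentiated spermatogonia, the stem and progenitor cells, 2 lay above both somatic libraries, Epcam and Sox3, and 2 lay below, Id4 and Itgb1, and these 4 passed limma. Those counts do not exceed the shares among all genes, 17.9% above and 13.4% below. For Epcam and Sox3 both somatic signals were under the floor, which removed their spread, so their limma calls are descriptions. The list's median difference was 1.19 (log2), and 14 members had a difference over 0. Ret, the receptor for the Sertoli cell factor GDNF, read 1730 on STO day 1 and 1145 on MSC1 but 48.6 on STO day 20 and 87.3 in non-binding cells, over somatic signals of 1.50 and 1.90. Gfra1, its co-receptor, read 58.6 on STO day 20, under both somatic signals of 66.7 and 65.7, and up to 376 on MSC1. Ret was above both somatic signals in every germ library before the floor was set, and on STO day 20 it was under the floor as they were, while Gfra1 on STO day 20 lay below both. Sox3 was separated by 2.89-fold at the least, with 1567 in laminin-binding cells and 144 to 257 in the other germ libraries.

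Id4 and Itgb1, both used as markers of spermatogonial stem cells, were lower in germ libraries. Id4, an inhibitor of differentiation, had germ signals of 244, 431 and 1126 and somatic signals of 1292 and 1656 (adjusted p = 0.026). Itgb1, the integrin chain that binds laminin with its partner chains, had 468, 717 and 984 against 1595 and 3861 (adjusted p = 0.0066). The somatic libraries held the highest signals of both genes. Of 6 measured markers of differentiating spermatogonia, 4 lay above: Sohlh1, Kdm1b, Dnmt1 and Dmrtb1, of which the last did not pass limma. Limma called 3 higher, and among all genes 17.9% lay above and 11.0% were called higher. None lay below, and the list's median difference was 2.01 (log2).

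Of 10 measured markers of pachytene spermatocytes and later stages, 3 lay above and 1, Hspa2, passed limma as higher, beside 17.9% and 11.0% of all genes. Hspa2, a chaperone of meiosis, had 576, 919 and 5333 against 371 and 107 (adjusted p = 0.035). Ldhc, the testis form of lactate dehydrogenase, read 6938 in laminin non-binding cells, 4.10 to 149 in the other germ libraries, and 261 and 69.5 in the somatic ones. Crisp2 had the same order, with 3811 in non-binding cells, at most 46.1 in the other germ libraries, and 448 and 15.4. The interstitial library thus held more signal than 6 of the 7 germ libraries for both genes.

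Several RNA-binding proteins were higher in germ libraries. Cpeb1, which controls translation through poly(A) tails (chr1:144709278-144817388), had germ signals of 1040, 1284 and 1993 and somatic signals of 32.6 and 43.9, at least 20.8-fold apart. Both somatic signals were under the floor, which removed their spread, so no limma value is given for Cpeb1. Igf2bp3, an oncofetal protein that binds mRNA, had 1708, 2385 and 3264 against 148 and 13.4. Elavl2, of the ELAV family, had 904, 1581 and 3894 against 72.0 and 314. In the list of 17 such genes 6 lay above and 5 passed limma as higher, beside 17.9% and 11.0% of all genes. The list median was 0.72. Ddx3x, a helicase found in most cells, overlapped, with 1313 to 2872 against 2740 and 3543, while the helicase Dhx9 lay above, with 516 to 2234 against 220 and 325 (limma, adjusted p = 0.034).

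Other genes near the top included Dxo, which removes faulty RNA caps. It had 1389, 2510 and 3321 against 92.2 and 68.8, a gap of 15.1-fold. Erhl1 had 1022, 1770 and 2243 with both somatic signals under the floor, at 49.2 and 6.20, at least 20.4-fold. Rpl39l1, a paralog of the ribosomal protein gene Rpl39, had 1667, 2152 and 4911 against 201 and 151, a gap of 8.30-fold. Rpl39 itself overlapped, with 72.1 to 225 in germ and 224 and 252 in somatic libraries. Near-identical copies can share probe sequence, and this was not tested for that pair.

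Genes of cell division made up the largest list on the germ side. All 35 measured genes of cell cycle and replication had a difference over 0, with a median of 1.98 (log2). Of these 25 lay above both somatic libraries and 26 passed limma as higher, beside 17.9% and 11.0% of all genes. None lay below. Mcm5, a subunit of the replicative helicase at chr19:13488813-13510131, had germ signals of 724, 1252 and 1626 against 109 and 105, a gap of 6.65-fold (3.45 ± 0.35, adjusted p = 6.7e-05). Mcm6 and Mcm7, of the same ring, had gaps of 2.37-fold and 2.18-fold. Ccne2, the cyclin of entry into S phase, had 646, 740 and 2500 against 42.7 and 52.8, with 1 other probe set that differed in the opposite direction. The somatic libraries were not free of these transcripts, since Pcna, the sliding clamp of replication, read 1343 and 922 against 2515 to 3798.

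Mitotic genes had the same order, with the interstitial library above the tubular one. Mki67, a nuclear protein of dividing cells, had 1320, 1575 and 2820 against 331 and 127, and Ccnb1, the mitotic cyclin, 1084, 1349 and 1889 against 446 and 123. Bub1, a checkpoint kinase, had 1771, 3663 and 8078 against 785 and 283, and Cdc20, which activates the anaphase complex, had 731, 1521 and 1710 against 300 and 96.8. All 4 had gaps from 2.26-fold to 3.99-fold. The 9 members that did not pass limma included Cdk1, with 178 to 647 against 311 and 93.2, and Tyms, with 20.7 to 239 against 110 and 29.8.

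The upstream bases of Mcm5 and Mcm6 are shown because they hold the letters of an E2F element, a site class known from replication genes. The search used TTTCCCGC and TTTGGCGC on both strands. The windows are chr19:13488563-13488812 (plus strand), with matches that begin 209 and 8 bases before the start, and chr13:42404353-42404602 (minus strand), with a match 139 bases before it.
Mcm5: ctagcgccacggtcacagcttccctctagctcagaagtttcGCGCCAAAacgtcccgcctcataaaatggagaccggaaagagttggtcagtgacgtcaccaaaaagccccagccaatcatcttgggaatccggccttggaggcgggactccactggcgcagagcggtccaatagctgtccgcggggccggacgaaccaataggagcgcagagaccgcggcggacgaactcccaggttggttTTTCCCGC
Mcm6: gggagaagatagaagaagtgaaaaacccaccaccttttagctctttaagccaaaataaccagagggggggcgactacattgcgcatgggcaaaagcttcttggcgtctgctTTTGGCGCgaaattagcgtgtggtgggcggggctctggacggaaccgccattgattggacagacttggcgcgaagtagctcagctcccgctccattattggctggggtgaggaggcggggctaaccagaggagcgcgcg
In windows of 300 bases these letters were in 7.50% of the genes that lay above by 2-fold or more, 1.49% of those below, 2.98% of the tested genes and 1.53% of all windows. Among the genes named here Mcm7, Cdt1, Pole, Ezh2, Hells, Fancd2, Asz1 and Tex14 also had a match, as did Kitlg and S100a6 from the somatic side. The windows of the germ side also held more CpG pairs, with a median of 24 against 16 on the somatic side and 21 among the tested genes, and whether the share of E2F letters follows from that composition was not tested.

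Many DNA repair and chromatin genes were also higher in germ libraries. In DNA repair and recombination 11 of 17 measured genes lay above, and 1, Smc1a, lay below without passing limma. Limma called 11 higher and none lower, and the median was 1.61. Among all genes 17.9% lay above and 11.0% were called higher. Brca2, the loader of recombinase on DNA, had 408, 625 and 1170 against 105 and 130, and Exo1, an exonuclease, had 684, 1139 and 2023 against 204 and 108. Recql4, a helicase of replication and repair, had a gap of 10.0-fold, with 1364, 1995 and 2218 against 136 and 121. Blm, a helicase of the same family, had 1467, 2120 and 2546 against 558 and 407. The groups did not overlap in these 4 genes.

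Among chromatin and DNA methylation genes 14 of 20 lay above and 12 passed limma as higher, beside 17.9% and 11.0% of all genes. None lay below or was called lower, and the median was 1.31. Hells, a remodeller required for DNA methylation, had 1798, 3000 and 3935 against 375 and 172, a gap of 4.80-fold. Ezh2, the methyltransferase of Polycomb complex PRC2, had 293, 757 and 1319 against 107 and 134. Setdb1, which methylates histone H3 at retroelements, had one of the narrowest germ ranges: 5300 to 7189, 1.36-fold in all, against 2501 and 2080. The PRC2 partner Suz12 overlapped, with 138 to 1161 against 405 and 540, while Eed lay above, with 1317 to 3017 against 660 and 755.

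**Figure D3:**
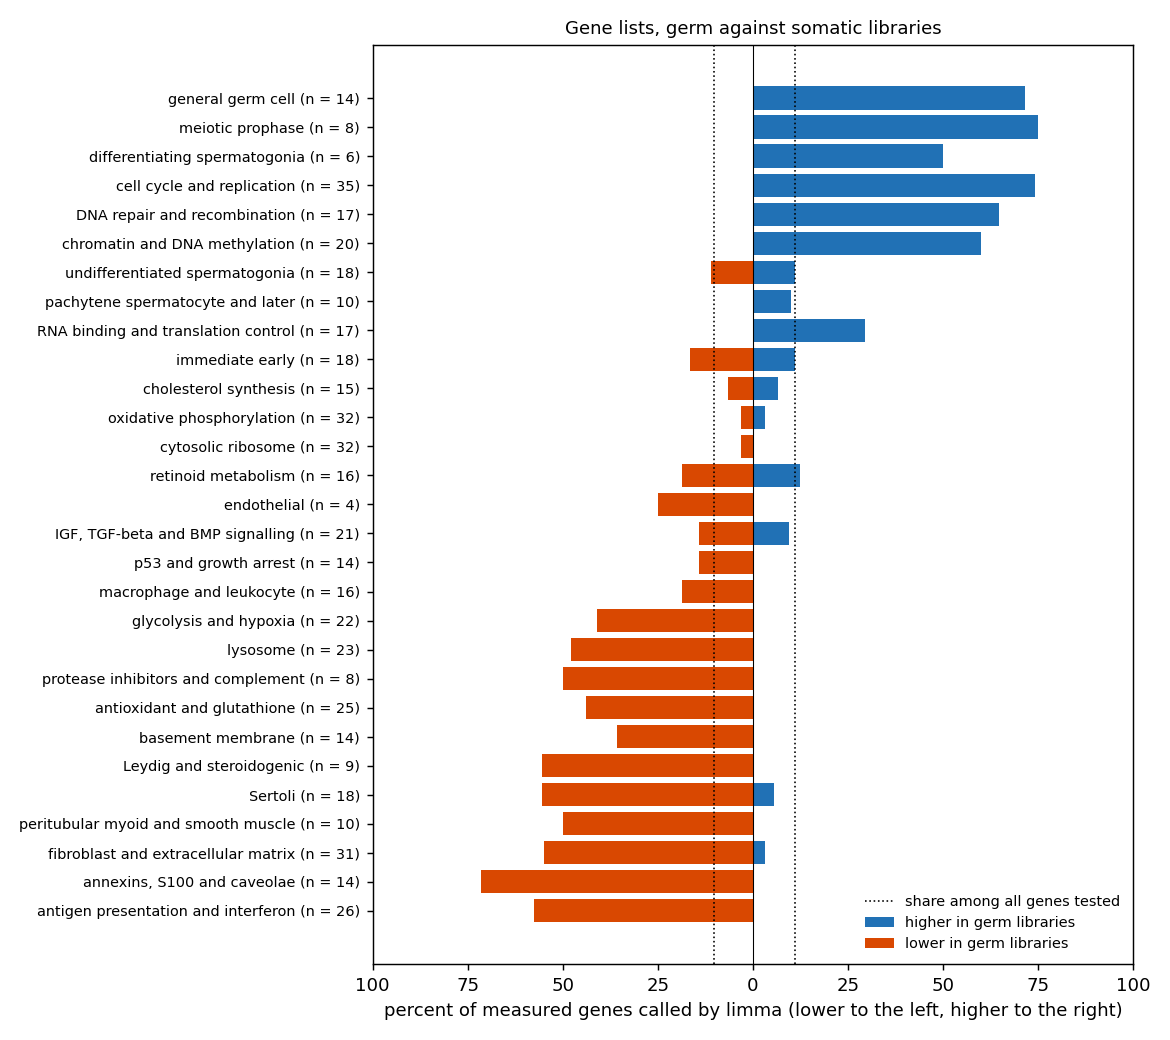
Percent of the measured genes of each list (n in brackets) that limma called higher (blue, to the right) or lower (orange, to the left) in germ libraries, ordered by the list's median difference. Dotted lines mark the shares among all 10231 genes, 11.0% higher and 10.2% lower. General germ cell, differentiating spermatogonia, meiosis, cell cycle, repair and chromatin lists stand to the right. Somatic cell, matrix, interferon, lysosome and glutathione lists stand to the left. Undifferentiated spermatogonia, with 2 of 18 called each way, and pachytene genes, with 1 of 10 called higher, stay near the dotted lines.

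On the somatic side the widest gaps belonged to genes of several functions. Ifit2, an interferon-induced RNA-binding protein (chr1:241515735-241521799), had germ signals of 57.0, 80.0 and 195 against 3319 in interstitial and 6261 in tubular somatic cells. The lower somatic library was 17.1-fold over the highest germ library (-5.63 ± 0.49, adjusted p = 3.7e-05). Aldh1a1, an enzyme that makes retinoic acid (chr1:227426939-227579497), had 65.7, 95.0 and 153 against 3221 and 2507, a gap of 16.4-fold (-4.79 ± 0.41, adjusted p = 3e-05). Epas1, the hypoxia-inducible factor HIF2A, had 81.0, 142 and 207 against 2087 and 2379, a gap of 10.1-fold. The groups were far from overlap in all 3 genes.

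Serpinh1, the collagen chaperone HSP47 (chr1:163055630-163063177), was under the floor in all 7 germ libraries, from 29.8 to 47.8. It read 1104 and 782 in the somatic ones, at least 15.6-fold apart. It passed the signal filter only through the somatic libraries, and the floor removed its germ spread, so no limma value is given for it. Smarca1, an ISWI remodeller, had 3.20, 23.2 and 70.9 against 626 and 1581. Il17re, an interleukin receptor chain, had 13.8, 33.3 and 61.3 against 801 and 1075. Enpp2, the secreted enzyme autotaxin, had 40.7, 54.8 and 86.9 against 789 and 686. For Smarca1 and Il17re laminin-binding cells were the only germ library above the floor by more than a few units. Zfpm2, a cofactor of GATA4, had a gap of 9.69-fold on its brightest probe set, but its 2 other probe sets differed in the opposite direction.

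Many markers of the somatic cell types were lower in germ libraries, but not all of them separated. Of 18 measured Sertoli markers 9 lay below, 1 lay above, 10 passed limma as lower and 1 as higher, with a median of -1.75 (log2). Among all genes 13.4% lay below and 10.2% were called lower. Gata4, a transcription factor of gonadal somatic cells, had 69.0, 103 and 152 against 652 and 1089. Wt1, the factor that keeps Sertoli identity, had 39.5 to 155 against 242 and 1273 (adjusted p = 0.0026). Cldn11, a tight junction protein of the blood-testis barrier, had 55.6, 88.3 and 637 against 1621 and 3390, with the high values in laminin-binding and MSC1 cells. The exception was Rhox5, a homeobox gene of the X chromosome known from Sertoli cells, which lay above with 88.5, 105 and 189 against 29.7 and 53.8 (adjusted p = 0.039).

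Kitlg, the ligand of the KIT receptor of spermatogonia, had 37.2, 64.8 and 110 against 521 in interstitial and 281 in tubular cells. Vnn1, a pantetheinase, had 21.2, 40.1 and 244 against 996 and 1101. Clu, Shbg and Inha, which Sertoli cells secrete, overlapped because the interstitial library was as low as the germ ones: Shbg read 68.5 and 537 against 70.5 to 120, and Inha 85.2 and 713 against 46.6 to 158. Defining markers Sox9 and Amh did not reach 100 in 2 libraries, and their highest somatic signals were 32.1 and 47.5. The tubular somatic library held Dhh, a Sertoli cell ligand, at 2526, but Dhh overlapped, since laminin-binding cells read 466 against 440 in interstitial cells.

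Among Leydig and steroidogenic genes 4 of 9 measured lay below and 5 passed limma as lower, beside 13.4% and 10.2% of all genes. The median was -1.72. Nr5a1, the factor SF1 of steroidogenic and Sertoli cells, had 12.8, 39.3 and 90.9 against 799 and 646, a gap of 7.11-fold, and Star, which brings cholesterol into mitochondria, had 45.9 to 404 against 2094 and 672. Tspo, a mitochondrial membrane protein, had 139, 190 and 240 against 1308 and 772. Hsd3b1 and Cyp11a1, enzymes of androgen synthesis, were read in the interstitial library alone, at 2400 and 655, with 8.60 and 49.3 in tubular somatic cells and at most 72.1 and 80.2 in germ cells. Such genes cannot lie on one side of both somatic libraries. Insl3, the hormone of mature Leydig cells, was under the floor in both.

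Genes of the extracellular matrix formed the longest somatic list. Of 31 measured genes of fibroblasts and matrix, 14 lay below, 1 above, 17 passed limma as lower and 1 as higher. The median was -2.09, and among all genes 13.4% lay below and 10.2% were called lower. Dcn, a collagen-binding proteoglycan, had 39.6, 54.5 and 126 against 4330 and 281, and Timp1, a protease inhibitor of the matrix, had 126, 211 and 457 against 2214 and 1392. Col1a2 had 81.3 to 761 against 3650 and 875 (adjusted p = 0.014). Col1a1 and Col3a1 did not pass: Col3a1 read 68.4 to 604 against 3852 and 278, so that MSC1 and STO day 20 cells lay above the tubular library. Fbln1, a matrix glycoprotein, was the member above, with 176, 285 and 353 against 73.3 and 62.0 (2.02 ± 0.38, adjusted p = 0.0026).

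The germ libraries did not stand equally low for matrix genes. The median level of the matrix list, as log2 signal less each gene's mean over the 9 libraries, was 0.36 on MSC1, 0.08 on STO day 20 and -0.94 to -0.52 in the other 5 germ libraries, below 2.14 in interstitial and 1.03 in tubular cells. Basement membrane genes were also highest on MSC1 among germ libraries, at 0.95, between 1.43 in interstitial and 0.63 in tubular cells. Of those 14 genes 4 lay below and 5 passed limma as lower, beside 13.4% and 10.2% of all genes. Lamc1, a laminin chain, had 118, 311 and 673 against 3034 and 1986, and MSC1 gave the highest germ signal for it and for Lamb1. The part of mouse feeder RNA in these levels was not tested.

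Smooth muscle, macrophage and endothelial lists were thin. For peritubular myoid and smooth muscle genes 3 of 10 lay below and 5 passed limma as lower, beside 13.4% and 10.2% of all genes. Cald1, an actin regulator of smooth muscle, had 82.4, 146 and 295 against 1838 and 2102, and Tpm1, a tropomyosin, had 212, 349 and 493 against 1093 and 5845 on the brightest of its 4 probe sets, 1 of which differed in the opposite direction. Acta2, the defining muscle actin, was at most 93.5 in any library. Of 16 macrophage and leukocyte genes 2 lay below, Cd163 and Lgals3, a share near the 13.4% of all genes. Limma called 3 of the 16 lower, beside 10.2% of all genes. Laptm5, a leukocyte gene left out by the filter, read 1375 in the interstitial library and at most 78.3 elsewhere. Of 13 endothelial genes on the arrays 4 were measured and 1, Kdr, lay below, beside 13.4% of all genes. A list of 4 is too short to compare with that share. None of 4 red blood cell genes was measured.

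Genes of antigen presentation and the interferon response had the lowest median of the lists. Of 26 measured genes 14 lay below and 15 passed limma as lower, beside 13.4% and 10.2% of all genes. None lay above or passed as higher, and the median was -2.60 (log2). B2m, the light chain of MHC class I, had germ signals of 294, 366 and 1116 against 3816 and 6154, a gap of 3.42-fold (-3.55 ± 0.47, adjusted p = 0.00031). Laminin-binding cells held the 1116, and the other 6 germ libraries were at 402 or less. Ifitm3, a membrane protein that restricts viral entry, had 53.3, 71.5 and 293 against 1675 and 1464, and Ifitm2 had 54.5, 79.6 and 88.5 against 886 and 444. Tap1, a subunit of the peptide transporter for class I, had 18.2, 43.1 and 75.8 against 175 and 595.

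Ifitm1, Ifitm2 and Ifitm3 were higher in interstitial than in tubular cells, at 3066 against 408 for Ifitm1. Several other interferon-induced members leaned on the tubular somatic library. Isg15 read 24230 there, 596 in interstitial cells and 136 to 2600 in germ libraries, and did not pass the test (adjusted p = 0.12). Mx1, a dynamin-like antiviral protein, lay below with 26.0 to 119 against 166 and 2342 (adjusted p = 0.0076). Irf7, Usp18 and Oas1a overlapped, although Irf7 passed limma (adjusted p = 0.036), with tubular signals of 6321, 3282 and 2652 over interstitial signals of 547, 221 and 122. The list's median level was 2.80 in tubular and 0.85 in interstitial cells, and from -1.33 on STO day 20 to 0.44 in laminin-binding cells. Its somatic levels thus differed from each other by more than the interstitial library differed from laminin-binding cells.

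The upstream bases of Tap1 and Ifitm3 are shown because they hold a match to the core of the interferon-stimulated response element (ISRE), searched on both strands. They are chr20:4668544-4668793 and chr1:205541759-205542008, both on the minus strand, with the match 121 and 44 bases before the start.
Tap1: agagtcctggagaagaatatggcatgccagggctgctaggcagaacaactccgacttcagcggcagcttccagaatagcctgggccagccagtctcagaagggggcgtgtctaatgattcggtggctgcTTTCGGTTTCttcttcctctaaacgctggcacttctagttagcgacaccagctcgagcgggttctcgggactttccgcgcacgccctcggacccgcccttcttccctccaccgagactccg
Ifitm3: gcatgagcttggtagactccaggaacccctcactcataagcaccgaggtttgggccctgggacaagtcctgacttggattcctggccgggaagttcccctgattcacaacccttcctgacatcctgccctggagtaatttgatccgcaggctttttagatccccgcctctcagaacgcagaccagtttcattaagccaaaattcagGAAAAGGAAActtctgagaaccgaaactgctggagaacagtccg
The ISRE core was in 8.63% of the windows of 300 bases of genes that lay below by 2-fold or more, 2.19% of those above, 3.03% of the tested genes and 3.77% of all windows. B2m, Tap2, Ifitm2, Nmi, Grn, Casp12, Faxdc2 and Acsbg1 had a match as well. The letters TGANTCA of the AP-1 site were in 5.95% of the genes below, 3.75% above and 4.61% of the tested genes, and CCAAT in 35.4%, 39.4% and 38.1%.

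Calcium-binding and membrane coat proteins lay on the somatic side. Of 14 measured annexin, S100 and caveola genes 11 lay below and 10 passed limma as lower, beside 13.4% and 10.2% of all genes. None lay above, and the median was -2.26. Anxa2, which links membranes to actin, had 326, 469 and 558 against 2257 and 3988, and Anxa5, a binder of phosphatidylserine, had 426, 560 and 1022 against 3440 and 3708. Anxa4 had 43.3, 69.7 and 126 against 903 and 1059, a gap of 7.16-fold. Cav1, the coat protein of caveolae, had 62.1 to 502 against 2441 and 936 (adjusted p = 0.0032). Anxa1 overlapped, since MSC1 cells read 1798 against 1016 and 1161.

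Lysosomal genes followed, with 13 of 23 below and 11 called lower by limma, beside 13.4% and 10.2% of all genes. The median was -1.33. Ctsk, a cathepsin that cuts collagen, had 47.1, 77.1 and 126 against 1568 and 763, a gap of 6.07-fold, and Asah1, the acid ceramidase, had 86.9, 116 and 127 against 665 and 786. Ctsl, a cathepsin also known as a Sertoli product, had the smaller gap of 2.53-fold, with 756, 1107 and 1490 against 3769 and 4122. The list was not uniform: Lamp1, a main membrane protein of the lysosome, read 3125 to 4962 against 1835 and 3252 and did not pass (adjusted p = 0.11), while Lamp2 lay below with 763 to 1507 against 3070 and 1626.

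In the antioxidant and glutathione list 11 of 25 lay below and 11 passed limma as lower, beside 13.4% and 10.2% of all genes. Of the 25, 1, Gclm, lay above, and the median was -1.47. The glutathione transferases led the list. Gsta1 had 79.6, 118 and 315 against 3412 and 2823, a gap of 8.96-fold, and the membrane form Mgst1 had 93.2, 154 and 410 against 3764 and 3473. Gstp1, the pi class form, had 19.9, 64.9 and 187 against 1808 and 878. Members of a transferase class are alike in sequence, so a probe set may read several of them. Sod2, the mitochondrial superoxide dismutase, had 133, 223 and 639 against 2273 and 2329, whereas the cytosolic Sod1 overlapped with 1877 to 7045 against 3114 and 3174.

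Glycolysis and hypoxia genes were lower or overlapped. Of 22 measured 6 lay below and 9 passed limma as lower, beside 13.4% and 10.2% of all genes. None lay above, and the median was -1.07. Ldhb, the lactate dehydrogenase subunit that favours lactate use, had 159, 204 and 255 against 2207 and 5377, a gap of 8.66-fold (-4.10 ± 0.40, adjusted p = 4.9e-05). Ldha, the other subunit, had 197 to 1913 against 2966 and 4248 (adjusted p = 0.012), with the high value in laminin non-binding cells. Tpi1, a glycolytic isomerase, had 165, 264 and 417 against 1834 and 1336. Slc2a3, a glucose transporter, overlapped, with 1619 in non-binding cells and 53.8 to 466 in the rest of the germ libraries.

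Complement and protease inhibitors varied widely within the germ group. Of 8 measured 4 lay below and 4 were called lower, beside 13.4% and 10.2% of all genes. C1s and C1r, the proteases of the first complement component, had 113, 271 and 1201 against 4371 and 3829, and 106, 260 and 1045 against 2725 and 5101, a range of 10.6-fold and 9.90-fold among germ libraries. C1s was highest on STO day 20 and C1r in laminin-binding cells. Both stayed below the somatic range in all 7.

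Some lists held fewer called genes than the shares of 11.0% higher and 10.2% lower among all genes. Of 32 oxidative phosphorylation genes 2 lay above and 2 below, beside 17.9% and 13.4% of all genes, and limma called 1 each way, with a median of -0.17. Cytosolic ribosomal genes had 1 above, 3 below and 1 called lower of 32, with a median of -0.18, and cholesterol synthesis 1 above and 2 below of 15. Other lists had counts nearer to those shares. Immediate early genes, which answer stimulation within minutes, had 2 above and 3 below of 18: Fosl1 and Fosb lay above, of which Fosb did not pass limma, and Ier3, Dusp1 and Klf6 below. Of 14 genes of the p53 pathway and growth arrest 2 lay below, Gas6 and Gas5. Of the 2 other probe sets of Gas6, 1 differed in the opposite direction.

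Of 16 retinoid metabolism genes 2 lay above and 4 below, beside 17.9% and 13.4% of all genes. Limma called 2 higher and 3 lower, beside 11.0% and 10.2% of all genes. Aldh1a1 and Aldh1a3 lay below both somatic libraries while Aldh1a2, another enzyme that makes retinoic acid, lay above, with 133 to 939 against 86.1 and 62.0. Crabp1, a retinoic acid carrier, lay above with 159 to 1252 against 91.8 and 65.1 (adjusted p = 0.012). Cyp26b1, which breaks retinoic acid down, lay below with 373 to 606 against 1362 and 1068 (adjusted p = 0.014). In the IGF, TGF-beta and BMP list, with 1 above and 4 below of 21, Igf2 lay above, with 185 to 733 against 96.8 and 69.5 (adjusted p = 0.0071), and Tgfb2, Tgfb3, Id2 and Fst lay below, of which Fst did not pass limma.

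**Figure D4:**
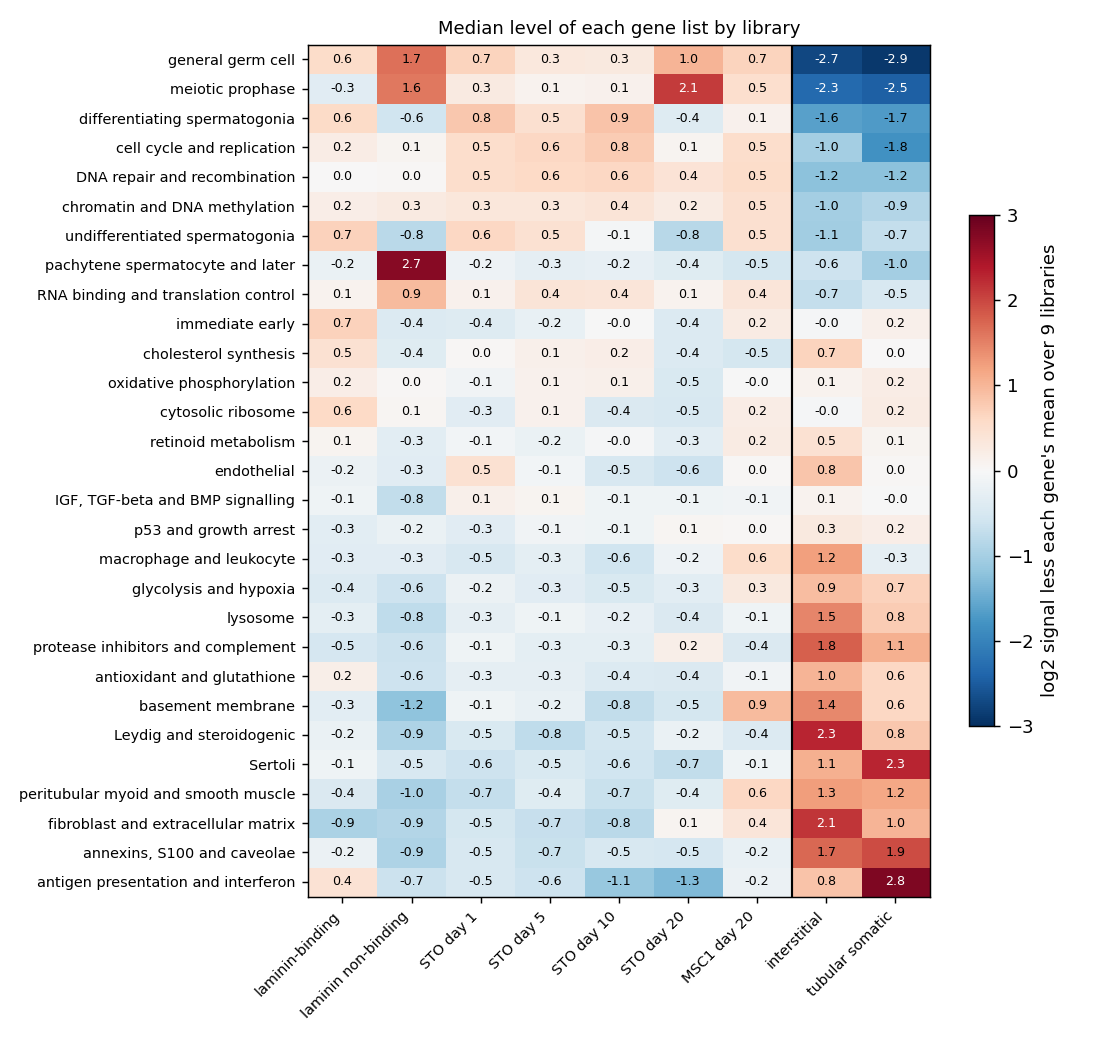
Median level of each gene list in each library, as log2 signal less each gene's mean over 9 libraries (red high, blue low; the number is the value). The black line divides the 7 germ from the 2 somatic libraries. Germ line and cell cycle lists are negative in both somatic libraries, and some germ line lists are also negative in some germ libraries. Undifferentiated spermatogonia genes are at -0.80 in laminin non-binding cells and -0.84 on STO day 20, beside -0.71 in tubular somatic cells. Pachytene genes are high in laminin non-binding cells alone at 2.73. Matrix and basement membrane lists are positive on MSC1 as well as in the somatic libraries.

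The germ libraries agreed more closely on some genes than on others. Among the 361 genes above with a gap of 2-fold or more the range over the 7 libraries had a median of 2.66-fold, and among the 408 below 2.44-fold, beside 2.90-fold for all genes. It was under 2-fold for 91 (25.2%) and 131 (32.1%), beside 17.2% of all genes, and signals at the floor narrow it on the lower side, where 23 genes were under the floor in every germ library. Prpf19, a ubiquitin ligase of the spliceosome, was the most even gene above, with 582 to 706, 1.21-fold, against 177 and 287. Cenpn, a centromere protein, had 2776 to 3475 against 729 and 443. At the other end Tnrc6c, a partner of Argonaute, ran from 459 on MSC1 to 7919 in laminin-binding cells, 17.2-fold, against 130 and 94.5, with 1 of its 4 other probe sets in the opposite direction.

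Below the somatic range the widest spread was that of Sat1, an enzyme of polyamine breakdown, with 75.6 on STO day 10 and 1204 in laminin-binding cells against 2463 and 2719. Gja1, the gap junction protein connexin 43, ran from 55.2 on STO day 5 to 728 on MSC1 against 2528 and 3001. Nmi and Cmpk2, both interferon-induced, ran from 14.9 to 572 and from 57.0 to 641. In each of these genes the range among germ libraries was 11.3-fold or more and exceeded the gap to the somatic libraries.

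The germ library nearest to the somatic ones was most often a laminin library or MSC1. On the upper side laminin-binding cells set the gap for 98 of 361 genes (27.1%), non-binding cells for 92 (25.5%) and MSC1 for 62 (17.2%). On the lower side these were laminin-binding cells with 146 of 408 (35.8%) and MSC1 with 92 (22.5%), while non-binding cells set it for 33 (8.09%). STO day 5 and day 10 set it least, for 16 to 21 genes on either side. The laminin libraries were also often the farthest from the somatic ones. On the lower side non-binding cells were farthest for 109 of 408 genes and laminin-binding cells for 76. On the upper side STO day 20 was farthest for 76 of 361, non-binding cells for 72 and laminin-binding cells for 62. Being nearest is thus not a measure of likeness to somatic cells. The 4 STO libraries share a feeder line and follow each other in culture, so they are not independent views of the germ side.

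**Figure D5:**
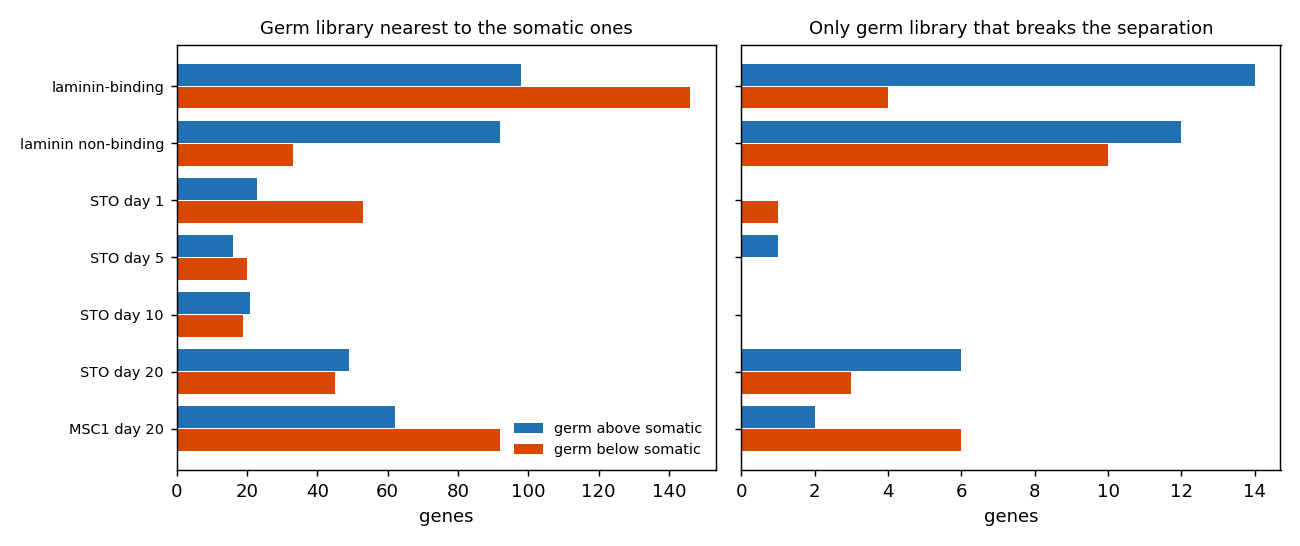
Left, the number of genes with a gap of 2-fold or more for which each germ library was the nearest to the somatic libraries; right, the number of genes for which that library alone lay inside or beyond the somatic range while the other 6 were apart by 2-fold or more. Blue is germ above, orange germ below. The laminin libraries have the longest bars on the right for germ above, with 14 and 12 genes of 35.

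For 35 genes 6 germ libraries lay above both somatic ones by 2-fold or more and a single one did not, and for 24 genes the same held below. Laminin-binding cells were the exception for 14 and 4 of them, non-binding cells for 12 and 10, STO day 20 for 6 and 3, MSC1 for 2 and 6, STO day 5 for 1 above and STO day 1 for 1 below. Tlcd4 read 83.5 in laminin-binding cells, just under somatic signals of 83.8 and 85.1, and 359 to 1564 in the other germ libraries. Ttc21b, a protein of ciliary transport, read 5961 in non-binding cells, over somatic signals of 2072 and 1397, and 114 to 485 in the rest. Egr4, a zinc finger factor of germ cells, read 36.6, under the floor, on STO day 20 and 146 to 891 elsewhere, over 1.40 and 4.40. Cp, the copper protein ceruloplasmin known as a Sertoli product, read 743 on MSC1, between somatic signals of 1524 and 399, and at most 115 in the other 6, and Hsd11b1, a steroid dehydrogenase of Leydig cells, read 258 on STO day 20, above the 194 of the tubular library.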

How the data were processed

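Signals were deposited as linear intensities which, per the labels, had been scaled to an average of 250 on each array, after 50 ng of total RNA was amplified in 2 rounds. The name of the array software is not given in the sources used here, while the detection calls (Tau of 0.015, per the labels) were not analysed here. Each array type was treated by itself. Signals were raised to a floor of 50 and taken to log2, and probe sets that reached 100 in 2 of the 9 libraries were kept. Control probe sets were left out, and probe sets on both types were read from type A. Germ minus somatic differences were fitted with limma 3.58.1 (R 4.3.3; lmFit, eBayes with trend, 7 residual degrees of freedom per type) and adjusted by Benjamini-Hochberg over both types at 0.05. The fit was tested on simulated data. Counts of separated probe sets use no test. Tables were made with Python 3.11.15, numpy 2.4.6 and pandas 2.3.3.

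Probe sets were named through the platform annotation and RefSeq (GRCr8), only where they had 1 gene, and a gene with several was represented by the probe set of highest mean signal (log2). Of 361 and 408 genes separated by 2-fold or more, 320 and 336 had a RefSeq promoter window. Genes were named by rule: per direction the 15 largest gaps above the floor and 10 at it, the 5 smallest and 5 largest germ ranges, list members separated by 2-fold or more, and up to 3 genes per germ library that alone broke the separation. Single list members outside this rule were chosen after their values were seen. The libraries, the 31 gene lists and this rule were chosen with earlier results of these data known. Other floors, filters, scalings and subsets of libraries are in the closing section.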

Additional observations from a re-analysis of the deposited data

Results flagged for a closer look

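Among 140 named genes, 18 had a germ library set apart from the other 6 by Dixon's criterion, and among 29 list levels 5 did. Chance marks about 1 in 20 such groups. For Il17re, Tap2, Frrs1 and Faxdc2 the other 6 libraries were all raised to the floor of 50, so that any single value over it meets the criterion, and these cases say nothing against that rate.

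Laminin-binding cells were low for Tex14 (1756, other germ libraries 3844 to 5442), Taf7l (1447, others 3965 to 5696) and Tdrd1 (2836, others 6919 to 12405). They were high for Ccdc88c (6801, others 847 to 1998), Sox3 (1567, others 144 to 257), B2m (1116, others 294 to 402), Gas6 (3634, others 484 to 729) and Kitlg (110, others 37.2 to 69.4). At or near the floor they were high for Il17re (61.3), Smarca1 (70.9) and Tap2 (57.6).

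Laminin non-binding cells were high for Mov10l1 (1686, others 420 to 687), Vnn1 (244, others 21.2 to 67.8) and Faxdc2 (61.2). STO day 20 was low for Cmpk2 (57.0, others 267 to 641) and high for Dcn (126, others 39.6 to 73.3). STO day 1 was high for Frrs1 (54.6) and MSC1 for Ifitm1 (160, others 61.5 to 89.7).

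Of the list levels (median log2 signal less each gene's mean), laminin non-binding cells were high for pachytene spermatocyte genes at 2.73 (others -0.52 to -0.16) and for RNA-binding genes at 0.95 (others 0.10 to 0.38), and low for IGF, TGF-beta and BMP genes at -0.75 (others -0.14 to 0.15). MSC1 was high for smooth muscle genes at 0.63 (others -0.98 to -0.36) and for macrophage genes at 0.56 (others -0.59 to -0.16).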

How the results depend on the processing

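The values compared here are the counts of probe sets with every germ library above both somatic libraries (2884), probe sets with every germ library below both somatic libraries (2535), probe sets higher in germ libraries by limma (1682) and probe sets lower in germ libraries by limma (1819), in this order. Quantile normalization, scaling to the 75th percentile, floors of 25 and 100 and a fit without variance trend kept all of them within 1.5 times. Without the signal filter limma called 1114 higher, and with a filter of 250 the count below was 1688. The laminin libraries alone gave 4884, 4620, 0 and 0 (limma; 3334 at an unadjusted p under 0.05), and the feeder libraries alone 4377 above and 2629 higher. With the feeder libraries averaged limma called 451 and 753. Type A alone gave 1745, 1308, 1103 and 1079, and type B alone 1139, 1227, 609 and 738, since each holds fewer probe sets. Asking for a gap of 2-fold left 545 above and 726 below. Leaving out 1 library at a time gave 2968 to 4681 above, 2604 to 4575 below, 562 to 2221 higher and 1036 to 2002 lower. Without the interstitial library 4575 lay below and limma called 562 and 1036, of which 529 and 890 were among the main calls. Without the tubular somatic library the counts were 4681, 4115, 618 and 1150. The cause of these shifts was not tested, apart from the number of probe sets or libraries that an alternative takes away.

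Of the 140 named genes none changed sign under any alternative in which it was tested. These genes were named because every germ library lay on one side of both somatic ones. Leaving out, selecting or averaging libraries therefore could not change their sign. The laminin libraries alone ended the call for all 140, reading each gene as the mean of its probe sets did so or moved the value for 27, and the interstitial and tubular somatic libraries, left out in turn, did so for 19 and 24. Of the list medians the endothelial one alone changed sign, with -0.34 as the main value and -0.36 to 0.17 over the alternatives. No paired analysis was possible because the labels give no replicate numbers and each population has 1 array per type. Signals near the floor limit folds on the dim side, and no value can be given for the spread between repeats of a population.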
